A study of Homo sapiens with 19 samples.

Results

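The comparison described here set cells with high MYCN against cells with low MYCN, 8 days after a pulse of doxorubicin had been washed out. The members were the 4 libraries whose labels give that time, 2 of MYCN-high and 2 of MYCN-low cells, out of 19 libraries in the series. All libraries came from SHEP TET21N, a neuroblastoma line engineered so that doxycycline in the medium shuts off a MYCN transgene. In the MYCN-low state doxycycline was present, and in the MYCN-high state it was absent. Both states received 0.1 µg/ml doxorubicin for 72 h and then growth medium free of the drug for 8 days. The 4 untreated libraries, 2 of each state with the same doxycycline regime and no doxorubicin, are set beside them. Doxycycline is absent from every MYCN-high and present in every MYCN-low library, so an effect of doxycycline itself and an effect of MYCN cannot be told apart. The line is a single engineered one, and the replicates, lettered B and C, are labelled biological duplicates without saying which cultures they came from.

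MYCN, a member of the MYC family of transcription factors, dimerises with MAX, binds E-box sequences and drives genes of ribosome production, nucleotide synthesis and growth, and its amplification marks aggressive neuroblastoma. Doxorubicin traps topoisomerase II on DNA and leaves double-strand breaks. The breaks stabilise p53, which induces the cell cycle inhibitor CDKN1A and can lead to a lasting arrest called senescence. Senescent cells lose lamin B1 and the transcripts of the cell cycle, and many of them secrete cytokines, proteases and matrix proteins.

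RNA was sequenced after removal of ribosomal RNA, and the deposited values are read counts per gene symbol. Gene totals were 19081927 to 27638012 counts in the 4 libraries and 16530112 to 27638012 in all 19. Levels are given in CPM, the standard unit of counts relative to the library's total, with totals scaled by the trimmed mean of M-values (TMM), always in the order replicate B, replicate C. A state difference is the log2 ratio of MYCN-high to MYCN-low with its standard error, and a gene is called where edgeR's quasi-likelihood test gave a Benjamini-Hochberg adjusted p under 0.05 over the 14793 genes tested. In bulk RNA, fewer cells of a kind and less RNA per cell cannot be told apart. ERCC RNAs, added in equal volume to each sample, made up 0.037% and 0.0961% of counts in MYCN-high and 0.089% and 0.0961% in MYCN-low cells at 8 days. Scaling by them in place of TMM raised the median state difference of all genes from 0.02 to 0.80 and left 0 genes called (0 also in untreated cells), so every count of calls here rests on TMM, which assumes that most genes do not differ. Blood markers (summed level 0.372 to 2.06 CPM) and endothelial markers (0.558 to 1.45 CPM) were near 0 in all 4 libraries. The epithelial list, of which 4 of 7 markers (EPCAM, KRT8, KRT18 and KRT19) passed the filter on low counts, summed to 269 and 184 CPM in MYCN-high and 336 and 814 CPM in MYCN-low cells, and its part in the results was not tested.

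The 3 genes that mark the comparison separated the states in every library. MYCN stood at 697 and 723 CPM in MYCN-high cells and at 22.1 and 24.9 CPM in MYCN-low cells, a state difference of 4.92 ± 0.34 (adjusted p = 3.84e-07). The difference before the drug was 4.78 ± 0.34, and its change over the experiment was 0.14 ± 0.42 (adjusted p = 0.89), so the doxycycline switch was in place at both times. CDKN1A, which blocks cyclin-dependent kinases, was at 158 and 61.0 CPM in MYCN-high and at 657 and 569 CPM in MYCN-low cells (-2.48 ± 0.35, adjusted p = 4.26e-05). The 2 MYCN-high libraries lay well apart for this gene, with both below the MYCN-low libraries. LMNB1, which encodes lamin B1 of the inner nuclear membrane, was at 258 and 319 CPM against 25.6 and 35.3 CPM (3.24 ± 0.34, adjusted p = 3.79e-06). MYC itself ran the other way from MYCN, with 0.511 and 0.211 CPM against 12.2 and 12.4 CPM (-5.04 ± 0.50, adjusted p = 2.87e-06). The paralog was thus detected almost only in MYCN-low cells, as it was before the drug (-5.07 ± 0.49).

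**Figure D1:**
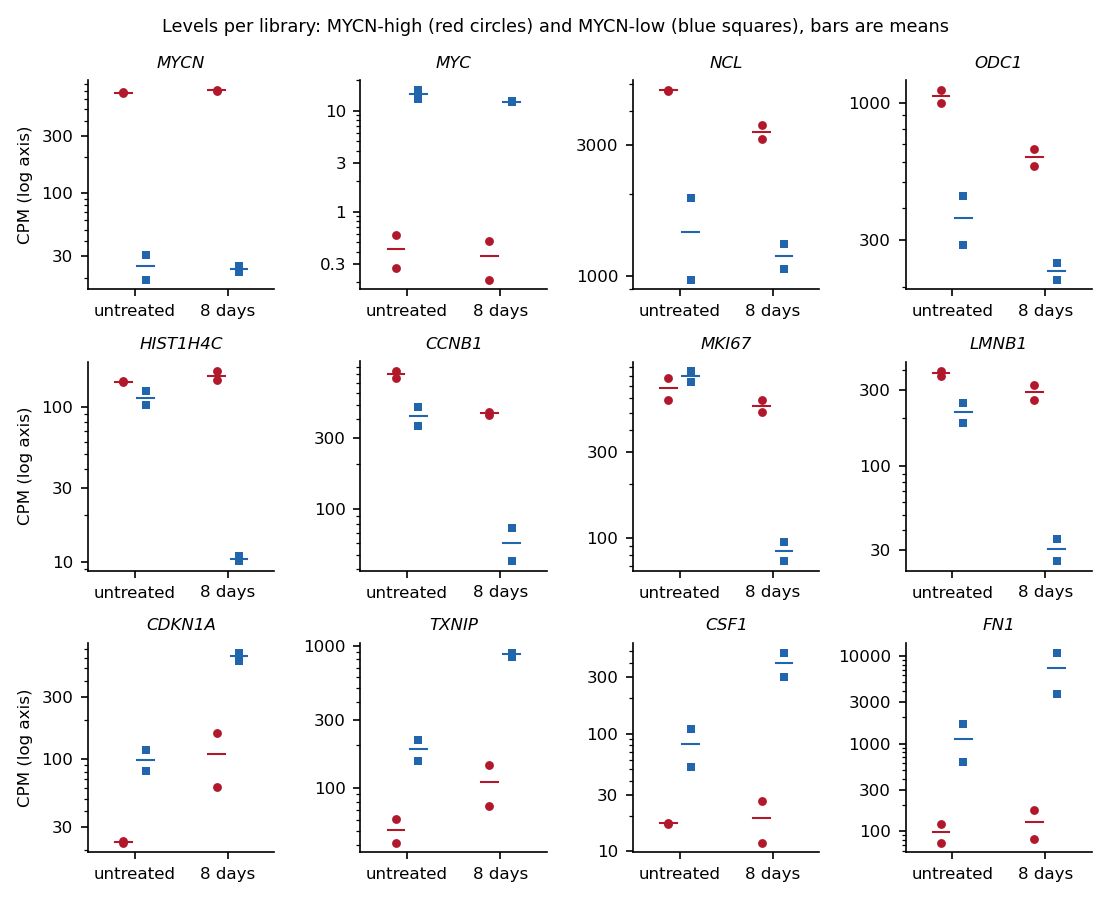
Level of 12 genes in CPM on log axes, untreated and 8 days after washout, with 1 point per library (red circles MYCN-high, blue squares MYCN-low) and bars at the mean of 2. MYCN, MYC, NCL and ODC1 are apart at both times, while HIST1H4C and MKI67 lie close together before the drug and 149 to 171 against 10.1 to 10.9 CPM and 504 to 587 against 74.1 to 94.8 CPM at 8 days.

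At 8 days 3458 genes (23.4% of those tested) were called higher and 3034 (20.5%) lower in MYCN-high cells. Of these, 2008 and 1923 differed at least 2-fold. Day 8 was chosen as the time with most genes apart between the states, so its larger count than at other times follows from that choice. In untreated cells 2444 (16.5%) were called higher and 2745 (18.6%) lower, 5189 in all, against 2903 without untreated MYCN-high replicate C and 3102 without untreated MYCN-low replicate B. The other times gave 4428 calls at 72 h, 4706 at 3 days and 6190 at 14 days, where MYCN-low has 1 library. At 14 days 4496 of the calls were at least 2-fold, against 3931 at 8 days. Leaving out 1 of the 4 libraries gave 4490 (without MYCN-high replicate C) to 5379 calls (without MYCN-high replicate B), against 6492 with all. A background of more than 1 gene in 5 in each direction means that a list's count speaks only where it lies far from these shares.

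Much of the difference was there before the drug. Of the 3458 genes higher at 8 days, 1772 were also higher in untreated cells (51.2% of the former, 72.5% of the 2444), and 37 were lower there. Of the 3034 lower genes, 1727 were also lower before (56.9% and 62.9%), and 11 were higher. Across the 14793 genes, which are not independent replicates, the state differences at the 2 times had a Pearson correlation of 0.53, and 88.6% of the genes called at 8 days had the same sign in untreated cells. Whether the state difference itself had changed was tested as the 8-day difference minus the untreated difference, called the change below. It was higher at 8 days in 652 genes (4.41%) and lower in 287 (1.94%). With DESeq2's size factors the change was called in 893 genes, of which 54.6% rose, against 69.4% with TMM. Its count depended on single libraries, from 246 (without 8-day MYCN-high replicate C) to 3036 genes (without untreated MYCN-low replicate C). The untreated MYCN-low duplicates were the least alike, with 2647 genes more than 2-fold apart. In the other groups with duplicates the number ran from 1103 to 1664.

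The 652 genes whose state difference rose did so mostly on the MYCN-low side. MYCN-low cells at 8 days had 1516 genes (10.2%) above and 2165 (14.6%) below their untreated level, and MYCN-high cells 664 (4.49%) above and 605 (4.09%) below. Of the 652, 566 had fallen in MYCN-low cells and 70 had risen in MYCN-high cells. Of the 287 whose difference fell, 180 had risen in MYCN-low cells and 105 had fallen in MYCN-high cells. Without single libraries the calls ran from 347 (without untreated replicate B) to 561 genes (without untreated replicate C) in MYCN-high cells, against 1269 with all. They ran from 1948 (without 8-day replicate B) and 2185 (without 8-day replicate C) to 5111 in MYCN-low cells, against 3681. With ERCC scaling the median gene stood 1.14 higher in MYCN-high and 1.00 higher in MYCN-low cells at 8 days than before the drug, so falls smaller than this rest on TMM.

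**Figure D2:**
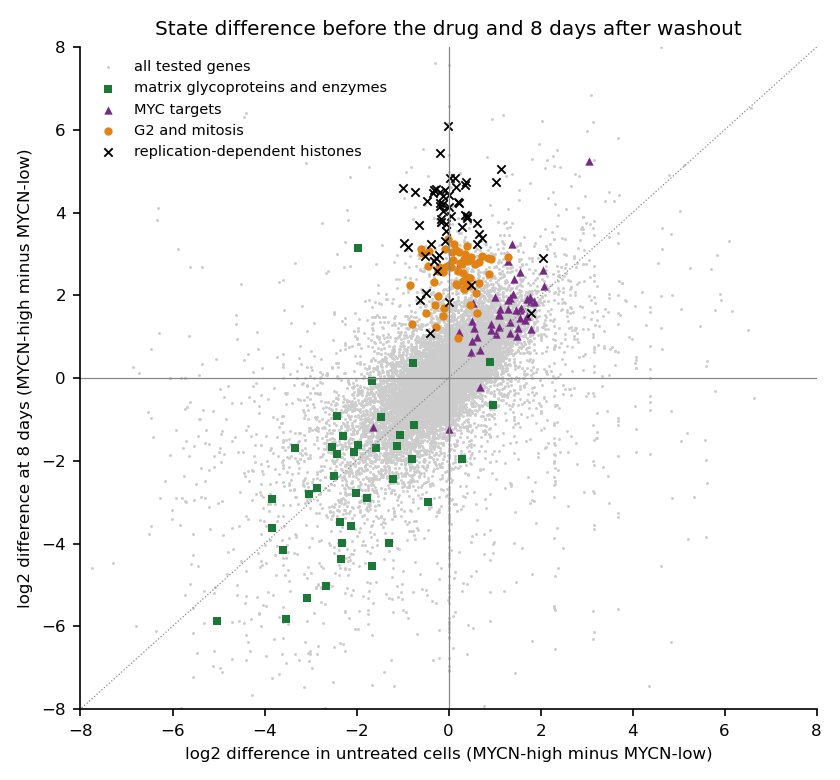
State difference (log2, MYCN-high minus MYCN-low) of each tested gene in untreated cells (horizontal axis) and at 8 days (vertical axis), with 4 gene lists marked and 23 genes outside the axes. MYC targets and matrix genes lie along the dotted line of equal differences, while mitotic and histone genes lie near 0 before the drug (medians 0.21 and -0.07) and above it at 8 days (medians 2.69 and 3.92). Vertical bands of grey points are genes with no counts in an untreated group, whose fitted values are no measure of size.

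The cell cycle held the gene lists with the largest higher medians. All 57 tested genes of G2 and mitosis were higher in MYCN-high cells at 8 days, with a median state difference of 2.69 against 0.02 over all genes. CCNB1, the cyclin that drives entry into mitosis, was at 430 and 445 CPM in MYCN-high and 45.0 and 74.9 CPM in MYCN-low cells (2.87 ± 0.29, adjusted p = 2.97e-06). MKI67, which coats mitotic chromosomes and serves as a proliferation marker, was at 587 and 504 against 74.1 and 94.8 CPM (2.69 ± 0.49). TOP2A, the isoform of topoisomerase II that doxorubicin targets in dividing cells, was at 967 and 842 against 112 and 188 CPM (2.59 ± 0.48). In all 3 genes the states were separated without overlap. The kinetochore genes NUF2 (2.96 ± 0.33) and CENPF (2.81 ± 0.34), the spindle checkpoint gene MAD2L1 (2.92 ± 0.32) and the securin gene PTTG1 (2.77 ± 0.33) were higher by similar amounts. Replicate B of the MYCN-low cells held the lower mitotic levels, a summed 1608 CPM over the list against 2352 CPM in replicate C, and the MYCN-high libraries held 10790 and 10190 CPM.

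In untreated cells few of the mitotic genes were called. Of the 57, 2 were called higher and 1 lower there, with a median of 0.21 and a range from -0.83 to 1.29. MKI67 was at 784 and 591 CPM in MYCN-high and 853 and 742 CPM in MYCN-low cells, where the libraries overlapped. All 57 had fallen in MYCN-low cells by 8 days, with a median change of -3.01 from the untreated level, and also when any 1 of the MYCN-low libraries was left out. In MYCN-high cells 4 of the 57 were below their untreated level, with a median of -0.71. The change of the state difference was called in 50 of the 57. That count fell to 4 without 8-day MYCN-low replicate B, to 7 and 12 without untreated MYCN-high replicates C and B, and to 14 and 28 without 8-day MYCN-high replicates C and B.

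Among the mitotic genes of smallest p that carry both a CHR element (TTTGAA) and a CCAAT box (CCAAT) in the 250 bases before their start are ECT2, which organises the cleavage furrow, and CCNB2, a second mitotic cyclin. They are shown because both motifs are textbook sites of late cell cycle promoters, the CHR element as a site of repression in arrested cells and the CCAAT box as the site of the activator NF-Y. The bases are from RefSeq on GRCh38.p14, at chr3:172750476-172750725 and chr15:59104896-59105145, both on the plus strand, with motif matches on either strand in capitals.
ECT2: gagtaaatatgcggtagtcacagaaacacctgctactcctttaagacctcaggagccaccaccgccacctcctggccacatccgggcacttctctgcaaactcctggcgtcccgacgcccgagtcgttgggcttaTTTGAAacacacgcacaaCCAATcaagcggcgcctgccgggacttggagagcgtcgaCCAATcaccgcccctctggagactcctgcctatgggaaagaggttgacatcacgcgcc
CCNB2: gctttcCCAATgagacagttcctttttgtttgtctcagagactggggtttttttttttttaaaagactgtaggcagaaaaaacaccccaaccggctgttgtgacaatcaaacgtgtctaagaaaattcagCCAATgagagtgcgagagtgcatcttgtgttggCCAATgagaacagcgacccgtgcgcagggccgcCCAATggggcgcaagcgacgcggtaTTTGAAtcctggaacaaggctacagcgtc
The ECT2 stretch holds 1 TTTGAA and 2 CCAAT matches, and the CCNB2 stretch 1 and 4. Of 49 mitotic genes matched to a RefSeq promoter, 51% had TTTGAA and 69.4% CCAAT in this stretch, against 13.6% and 33% of all 27305 promoters, and 9.07% and 35.4% of the 11255 promoters matched to tested genes. Both motifs were present in 40.8% of the mitotic promoters and 4.85% of all. ECT2 stood at 222 and 221 CPM in MYCN-high and 57.4 and 72.4 CPM in MYCN-low cells (1.77 ± 0.21, adjusted p = 9.59e-06). CCNB2, named for its sequence after its values were seen, stood at 99.4 and 90.9 against 9.72 and 17.1 CPM (2.82 ± 0.38, adjusted p = 3.30e-05). A match is a description of the letters and not evidence of binding.

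Replication-dependent histone genes, which are transcribed in S phase to package new DNA, showed the largest median difference of the lists. All 56 tested members were higher in MYCN-high cells, with a median of 3.92 and a range from 1.09 to 6.10. HIST1H4C, a histone H4 gene, was at 149 and 171 CPM in MYCN-high and at 10.1 and 10.9 CPM in MYCN-low cells (3.93 ± 0.30, adjusted p = 6.08e-07). HIST1H1C, a linker histone gene, was at 261 and 298 against 43.6 and 49.7 CPM (2.58 ± 0.18), and HIST2H2BF, an H2B gene, at 92.1 and 104 against 9.18 and 10.6 CPM (3.30 ± 0.21). The libraries of a state lay close together in these genes and the states far apart. In untreated cells the same list had a median of -0.07, with 4 members called higher and 2 lower.

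The change of the histone state difference was called in 54 of 56 members, and in 49 to 54 whichever of the 8 libraries was left out. For HIST1H1C it was 2.83 ± 0.24 and for HIST2H2BF 3.37 ± 0.27 (adjusted p = 3.01e-05 for each). In MYCN-low cells 55 members had fallen from the untreated level (median -4.04), and in MYCN-high cells 0 members were called in either direction (median 0.09). Near-identical copies make the count of a single histone gene uncertain. Most of these transcripts lack a poly(A) tail, and the labels name both removal of ribosomal RNA and poly(A) RNA, so how fully they were captured is not known. In the matched promoters of 46 of these genes 84.8% held CCAAT and 39.1% TTTGAA in the 250 bases before the start.

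DNA replication genes were higher in 51 of 52 tested members (median 2.21). MCM2, a subunit of the replicative helicase, was at 167 and 204 CPM in MYCN-high and at 20.8 and 26.1 CPM in MYCN-low cells (2.98 ± 0.27, adjusted p = 1.56e-06). DBF4 (2.74 ± 0.22) and CDC7 (2.80 ± 0.23) encode the regulatory and catalytic parts of the kinase that fires origins, RFC3 (2.87 ± 0.25) a subunit of the clamp loader, TYMS (2.20 ± 0.19) thymidylate synthase and TIMELESS (2.06 ± 0.17) a fork protection factor. Unlike the mitotic list, the replication list was partly apart before the drug, with 28 members higher in untreated MYCN-high cells and a median of 0.73. That count ranged from 12, without untreated MYCN-low replicate B, to 32. In MYCN-low cells 51 members fell by 8 days (42 without 8-day replicate B), and in MYCN-high cells 2 fell. The change was called in 27 members, among them MCM2 (1.98 ± 0.36, adjusted p = 0.00660) and TIMELESS (1.75 ± 0.23, adjusted p = 7.00e-04), but in 8 without 8-day MYCN-low replicate B, in 9 without 8-day MYCN-high replicate C, and in 9 and 14 without untreated MYCN-high replicates B and C.

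Repair of breaks by homologous recombination and the Fanconi pathway followed replication, with 26 of 28 genes higher and a median of 2.21. BRCA2, a core gene of homologous recombination, was at 78.3 and 81.1 CPM against 13.1 and 13.8 CPM (2.57 ± 0.32, adjusted p = 1.79e-05). BRCA1 (2.31 ± 0.27), the helicase gene BLM (2.98 ± 0.38), the Fanconi complex gene FANCI (2.70 ± 0.31) and its ubiquitin-conjugating enzyme UBE2T (2.25 ± 0.24) were also higher. The untreated median was 0.58. In MYCN-low cells 22 of the 28 had fallen at 8 days and in MYCN-high cells 1 had. The change was called in 16, and in 3 without 8-day MYCN-low replicate B, in 5 without 8-day MYCN-high replicate C, and in 4 and 5 without untreated MYCN-high replicates B and C.

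Genes of the nuclear lamina and chromatin that are known to fall in senescence were higher in 20 of 21 tested members (median 1.81). Besides LMNB1, TMPO, which encodes the lamina-associated LAP2 proteins, was at 533 and 662 CPM in MYCN-high and at 61.9 and 79.0 CPM in MYCN-low cells (3.08 ± 0.29, adjusted p = 2.00e-06). LBR, the lamin B receptor gene (2.18 ± 0.17), and EZH2, the methyltransferase of Polycomb complex 2 (2.45 ± 0.24), were higher as well. LMNA was the exception, at 395 and 352 against 644 and 584 CPM (-0.72 ± 0.17, adjusted p = 0.00251), a direction that turned to 0.094 with ERCC scaling. Of the 21 members, 11 were already higher and 2 lower in untreated MYCN-high cells (median 0.63). The change was called in 12, a count that fell when single libraries were left out. LMNB1 was at 392 and 366 CPM in untreated MYCN-high and at 186 and 249 CPM in untreated MYCN-low cells (0.80 ± 0.31, adjusted p = 0.0551). Its state difference had therefore changed by 2.44 ± 0.44 (adjusted p = 0.00636), through a fall of 2.84 on the log2 scale in MYCN-low cells (adjusted p = 3.51e-05).

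Of 28 genes that govern the G1 phase, 18 were higher and 2 lower in MYCN-high cells (median 0.98). E2F8, a repressive E2F factor, was at 13.2 and 16.9 against 0.688 and 1.31 CPM (3.88 ± 0.48), and its change of 3.67 ± 0.62 was called (adjusted p = 0.00483). CDC25A, a phosphatase that activates cyclin-dependent kinases (2.75 ± 0.34), and SKP2, a ubiquitin ligase subunit that degrades their inhibitors (2.12 ± 0.26), were higher too. The 2 lower genes were CDKN1A and CCND1. CCND1, the cyclin of early G1, was at 245 and 193 CPM in MYCN-high and at 383 and 595 CPM in MYCN-low cells (-1.16 ± 0.25, adjusted p = 0.00169), so the cyclin of early G1 and those of mitosis lay in opposite directions.

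**Figure D3:**
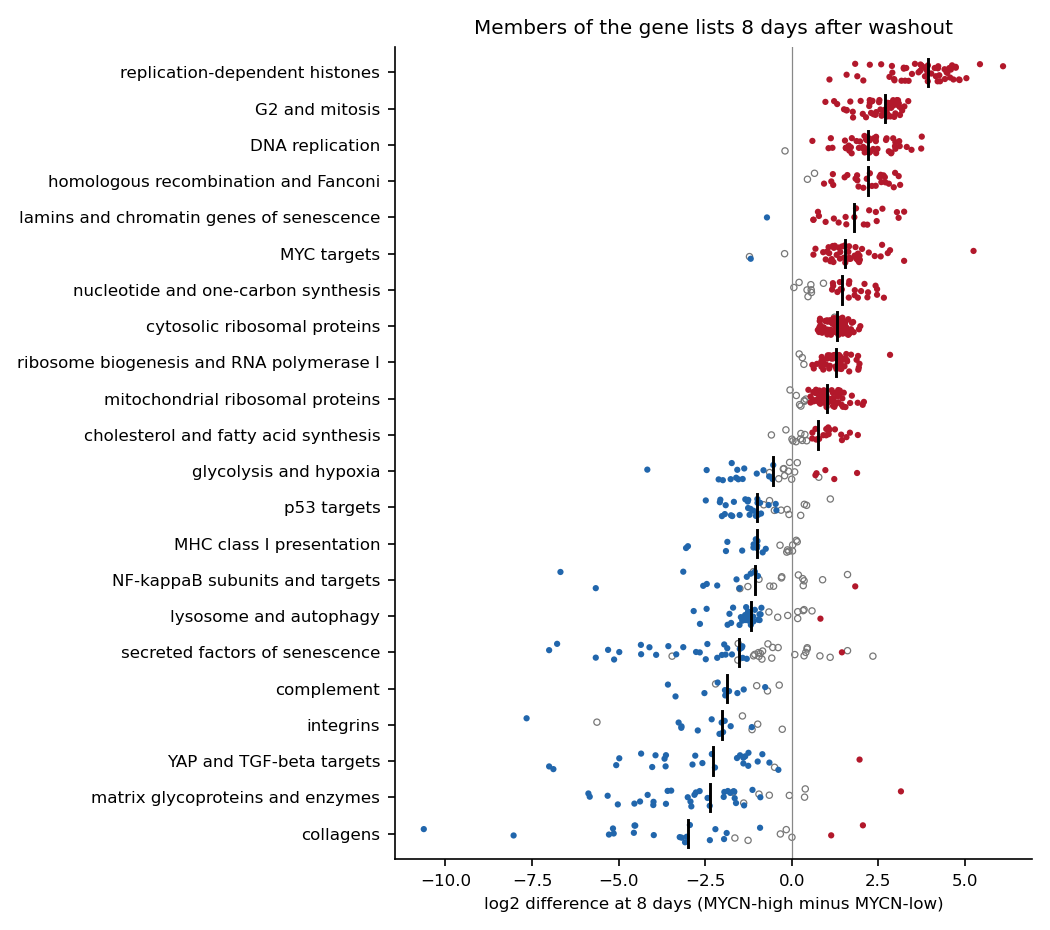
State difference at 8 days (log2, horizontal axis) of the tested members of 22 gene lists, 1 point per gene; filled red points were called higher and filled blue points lower in MYCN-high cells, open points were not called, and black bars mark medians. Histone, mitotic and replication lists lie to the right (medians 3.92, 2.69 and 2.21), and collagens, matrix genes and YAP and TGF-beta targets to the left (medians -2.99, -2.37 and -2.26).

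Genes known as MYC targets were higher in 44 of 47 tested members and lower in 1 (median 1.54). NPM1, the nucleolar chaperone nucleophosmin and one of the most abundant genes called higher, was at 10168 and 11174 CPM in MYCN-high and at 1623 and 1880 CPM in MYCN-low cells (2.61 ± 0.29, adjusted p = 7.10e-06). NCL, the nucleolar protein nucleolin, was at 3169 and 3537 against 1062 and 1306 CPM (1.5 ± 0.25), and ODC1, the first enzyme of polyamine synthesis, at 579 and 672 against 212 and 246 CPM (1.45 ± 0.19). Each of these was separated between the states by more than the spread of the libraries. TRAP1, a mitochondrial chaperone gene (2.4 ± 0.16), RCC1, the exchange factor of the RAN GTPase (2.57 ± 0.20), and TFAP4, a transcription factor directly induced by MYC (3.64 ± 0.31), were further examples. Unlike the mitotic genes, these were apart before the drug, with 40 of 47 higher in untreated cells and a median of 1.33. ODC1 had fallen in both states, by 0.77 in MYCN-high (adjusted p = 0.0184) and by 0.68 in MYCN-low cells (adjusted p = 0.0149), which left its state difference where it was (change -0.09 ± 0.26). Both falls are smaller than the shift of the median gene with ERCC scaling given above, so they rest on TMM.

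HSPD1, a mitochondrial chaperonin gene, and UTP20, a gene of the small ribosomal subunit's assembly, are among the MYC targets of smallest p with the E-box CACGTG, the core site of MYC and MAX, in the 250 bases before the start. They are shown for the site in capitals, which reads the same on both strands, from RefSeq on GRCh38.p14 at chr2:197500275-197500524 (minus strand) and chr12:101279855-101280104 (plus strand).
HSPD1: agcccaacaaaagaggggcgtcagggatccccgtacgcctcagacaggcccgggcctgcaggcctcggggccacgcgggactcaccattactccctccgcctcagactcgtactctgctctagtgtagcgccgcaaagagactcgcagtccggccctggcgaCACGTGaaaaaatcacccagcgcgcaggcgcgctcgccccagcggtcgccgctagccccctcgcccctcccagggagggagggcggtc
UTP20: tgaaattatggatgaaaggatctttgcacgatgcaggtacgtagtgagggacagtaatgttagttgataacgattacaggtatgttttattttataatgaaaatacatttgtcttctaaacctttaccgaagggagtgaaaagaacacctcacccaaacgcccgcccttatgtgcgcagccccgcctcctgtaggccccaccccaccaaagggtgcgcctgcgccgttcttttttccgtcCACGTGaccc
Of 40 matched MYC target promoters 27.5% held CACGTG in this stretch, against 6.49% of all promoters, 8.57% of those of tested genes and 12.2% of the mitotic ones. The share was 6.67% in ribosome biogenesis, a list also higher at both times, and 13% in DNA replication. For p53 targets it was 6.45%, and for collagens and replication-dependent histones 0%. HSPD1 was at 1710 and 1899 CPM in MYCN-high and at 347 and 426 CPM in MYCN-low cells (2.22 ± 0.22, adjusted p = 3.19e-06), and UTP20 at 321 and 445 against 120 and 117 CPM (1.69 ± 0.19, adjusted p = 7.99e-06). Both were named for their sequence after their values were seen.

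The machinery that makes ribosomes was higher in MYCN-high cells at both times. Ribosome biogenesis, RNA polymerase I included, held 50 tested genes, of which 47 were higher at 8 days (median 1.27) and 45 before the drug (median 1.30), and none was lower. FBL, the methyltransferase fibrillarin, was at 73.8 and 82.4 CPM in MYCN-high and at 10.7 and 11.1 CPM in MYCN-low cells (2.84 ± 0.22, adjusted p = 5.79e-07), and NOP56, its partner in the same particle, at 379 and 403 against 97.3 and 104 CPM (1.95 ± 0.17). FBL was 1 of 2 members with a called change (1.54 ± 0.29, adjusted p = 0.00732), while NOLC1, a nucleolar phosphoprotein gene, had the same difference at both times (1.86 ± 0.17 each).

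Ribosomal proteins themselves were higher in 75 of 76 tested cytosolic members at 8 days, with a narrow range from 0.75 to 1.98 and a median of 1.32. RPL5, a protein of the large subunit, was at 2484 and 3334 CPM in MYCN-high and at 838 and 1048 CPM in MYCN-low cells (1.63 ± 0.21, adjusted p = 2.48e-05). For RPL5 replicate C held the higher level in each state, by less than the distance between the states. In untreated cells 31 of the 76 were higher, with a median of 0.49, and 12 without untreated MYCN-high replicate C. The change was called in 17 members, but in 0 without untreated MYCN-high replicate B, 8-day MYCN-low replicate B or 8-day MYCN-high replicate C, in 1 without untreated MYCN-high replicate C, in 10 without 8-day MYCN-low replicate C, in 11 without untreated MYCN-low replicate B, and in 26 without untreated MYCN-low replicate C. Mitochondrial ribosomal proteins were higher in 66 of 74 members (median 1.00), MRPL3 at 297 and 324 against 112 and 111 CPM (1.48 ± 0.16), and 47 of them were higher before the drug.

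Genes that supply building blocks gave a mixed picture. Nucleotide and one-carbon synthesis held 29 tested genes, of which 21 were higher and none lower (median 1.45, and 0.76 before the drug). The purine synthesis genes PFAS (92 and 107 against 16.1 and 15.4 CPM, 2.66 ± 0.19), PAICS (2.18 ± 0.19) and GART (1.65 ± 0.15) were among them. Of 13 amino acid transporters 6 were higher and 1 lower (median 0.32), and of 11 genes of polyamine synthesis and breakdown 4 were higher and 1 lower. Of 20 aminoacyl-tRNA synthetases 8 were higher and 2 lower (median 0.37). The synthetases summed to 5380 and 4959 CPM in MYCN-high and 5070 and 3432 CPM in MYCN-low cells, so the states overlapped in this sum. The transporters SLC7A2, for cationic amino acids (61.2 and 74.4 against 3.68 and 2.69 CPM, 4.42 ± 0.29), and SLC6A15, for neutral ones (143 and 145 against 15.0 and 11.4 CPM, 3.45 ± 0.31), had been apart by 3.71 ± 0.28 and 3.17 ± 0.31 in untreated cells. Of 29 genes of cholesterol and fatty acid synthesis 19 were higher and none lower (median 0.76), and 10 without MYCN-low replicate B. EBP, a sterol isomerase (1.91 ± 0.20), the desaturase FADS1 (1.58 ± 0.16) and squalene synthase, FDFT1 (1.07 ± 0.14), were examples.

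Glucose metabolism was divided. Of 32 genes of glycolysis and hypoxia 16 were lower and 5 higher in MYCN-high cells, with a median of -0.55 that turned to 0.26 with ERCC scaling. LDHB, a lactate dehydrogenase subunit, was at 1939 and 1968 against 433 and 624 CPM (1.89 ± 0.26), close to its untreated difference of 1.73 ± 0.25. P4HA1, a collagen prolyl hydroxylase induced by hypoxia, was at 188 and 184 CPM in MYCN-high and at 840 and 767 CPM in MYCN-low cells (-2.11 ± 0.19, adjusted p = 1.32e-06), against -0.18 ± 0.18 before the drug (adjusted p = 0.483). BNIP3, a mitophagy receptor and hypoxia target, was at 68.3 and 55.3 against 111 and 138 CPM (-1.01 ± 0.16). The changes of P4HA1 (-1.94 ± 0.26, adjusted p = 7.99e-04) and BNIP3 (-1.40 ± 0.22, adjusted p = 0.00269) were called, and both genes had risen in MYCN-low cells. TXNIP, an inhibitor of glucose uptake and thioredoxin that MondoA induces, was at 146 and 74.6 against 838 and 894 CPM (-2.97 ± 0.30). TKT, transketolase of the pentose phosphate pathway, ran the other way, at 337 and 297 against 87.1 and 82.5 CPM (1.90 ± 0.25).

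Of 37 p53 targets 27 were lower in MYCN-high cells and none was called higher (median -0.99, which shrank to -0.11 with ERCC scaling). The 2 MYCN-high libraries differed here, with a mean log2 CPM over the list of 5.13 in replicate B and 4.49 in replicate C against 5.81 and 5.86 in MYCN-low cells, and without MYCN-high replicate C 14 of the 37 were called lower. C12orf5, the glycolysis regulator TIGAR, was at 26.6 and 23.1 CPM in MYCN-high and at 80.8 and 77.3 CPM in MYCN-low cells (-1.67 ± 0.19, adjusted p = 6.62e-06). C12orf5 differed by 0.39 ± 0.18 before the drug (adjusted p = 0.111), and its change of -2.06 ± 0.26 was called (adjusted p = 5.28e-04) whichever library was left out. PHLDA3, an inhibitor of AKT (-2.06 ± 0.28), and PLK2, a kinase induced by damage (-1.26 ± 0.21), were lower at both times. MDM2, the ubiquitin ligase that degrades p53, was at 463 and 315 against 818 and 856 CPM (-1.11 ± 0.29, adjusted p = 0.00531), and GDF15, a secreted stress factor, at 47.0 and 11.8 against 123 and 116 CPM (-2.02 ± 0.59, adjusted p = 0.0115). Neither MDM2 (adjusted p = 0.0798) nor GDF15 (adjusted p = 0.119) was called without MYCN-high replicate C.

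Before the drug 11 of the 37 p53 targets were already lower and 2 higher in MYCN-high cells (median -0.59). The change of the state difference was called in 3 of the 37, all as lower. Against their untreated level, p53 targets stood higher in MYCN-low cells in 28 of 37 members (median 1.19) and in MYCN-high cells in 10 (median 0.69). The MYCN-high count ranged from 4, without 8-day replicate B, to 14, and was 5 without untreated replicate C. CDKN1A had risen in both, by 2.24 in MYCN-high (adjusted p = 0.00126) and by 2.63 in MYCN-low cells (adjusted p = 9.24e-05), and the change of its state difference was -0.39 ± 0.47 (adjusted p = 0.674). The distance in CDKN1A at 8 days was thus close to the -2.10 ± 0.35 measured before the drug. Of 26 regulators of apoptosis 9 were lower and 2 higher in MYCN-high cells, with a median of -0.41 that turned to 0.29 with ERCC scaling, and 5 were lower without 8-day MYCN-high replicate C. The survival genes BCL2L1 (29.1 and 21.7 against 96.8 and 98.0 CPM, -1.94 ± 0.28) and MCL1 (311 and 277 against 645 and 552 CPM, -1.03 ± 0.18) were among the lower genes.

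**Figure D4:**
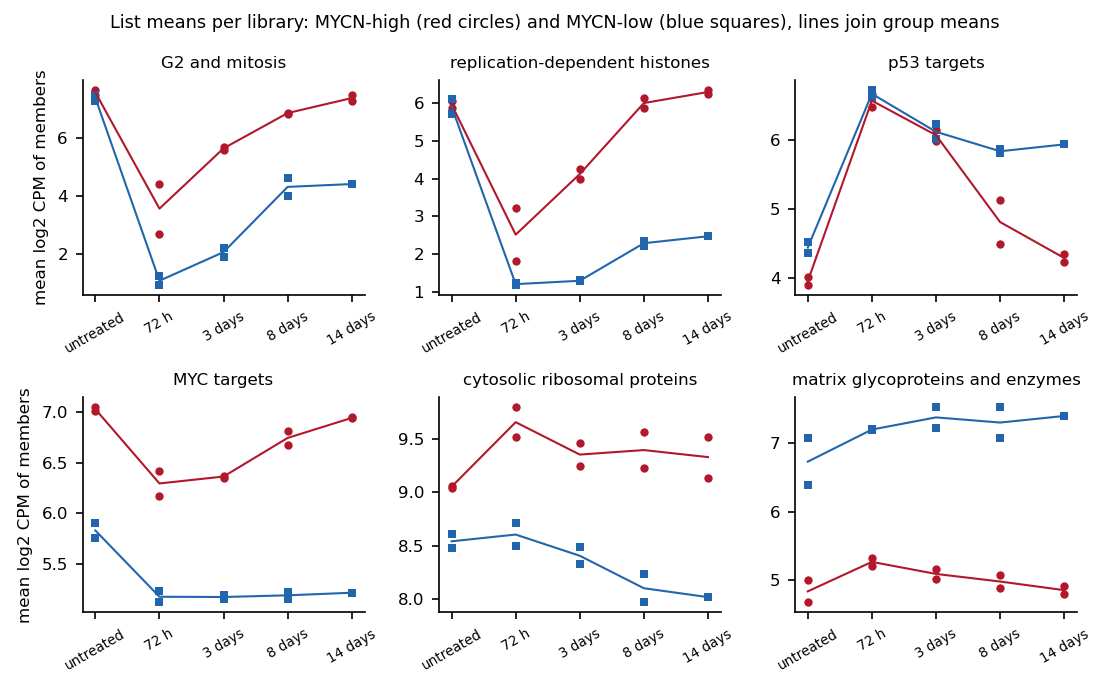
Mean log2 CPM of the members of 6 gene lists in each library over the time course (red circles MYCN-high, blue squares MYCN-low; lines join group means; 14 days has 1 MYCN-low library). At 8 days mitotic genes stood at 6.87 and 6.83 in MYCN-high and 3.98 and 4.62 in MYCN-low cells, after 7.28 to 7.65 in all 4 untreated libraries, while MYC targets and matrix genes were apart throughout.

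Day 8 fell within a rise of the mitotic genes after the drug. Mean log2 CPM of the mitotic genes in MYCN-high cells was 2.69 and 4.41 at 72 h, 5.57 and 5.69 at 3 days, 6.87 and 6.83 at 8 days and 7.46 and 7.27 at 14 days. In MYCN-low cells it was 0.91 and 1.21 at 72 h, 1.90 and 2.20 at 3 days, 3.98 and 4.62 at 8 days and 4.40 in the library at 14 days. For p53 targets the states overlapped at 3 days (6.15 and 5.99 against 6.23 and 6.01) and were apart at 8 days by the values above.

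Collagens and other matrix genes were mostly lower in MYCN-high cells. Of 26 collagens 19 were lower and 2 higher (median -2.99), and of 39 matrix glycoproteins and enzymes 31 were lower and 1 higher (median -2.37). FN1, fibronectin, was at 174 and 82.6 CPM in MYCN-high and at 10962 and 3671 CPM in MYCN-low cells (-5.83 ± 0.79, adjusted p = 3.45e-05). SPARC, a matrix-binding glycoprotein, was at 326 and 260 against 8911 and 3280 CPM (-4.38 ± 0.44), and THBS1, thrombospondin 1, at 97.1 and 115 against 5662 and 2788 CPM (-5.32 ± 0.48). In each of these replicate B of the MYCN-low cells was the higher one, and the list of 39 summed to 43770 CPM in that library, 22120 CPM in MYCN-low replicate C and 4702 and 4615 CPM in MYCN-high cells. COL5A1 (-4.56 ± 0.45), the basement membrane collagen COL4A1 (-4.52 ± 0.45) and COL3A1 (-2.37 ± 0.29) were lower, as were the modifying enzymes P4HA2 (-3.48 ± 0.30) and PLOD2 (-2.43 ± 0.21). Without MYCN-low replicate B 17 collagens and 29 matrix genes were still called lower.

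These matrix lists were lower before the drug too, with 34 matrix genes (median -2.07) and 16 collagens (median -1.80, and 9 members without untreated MYCN-high replicate C) called in untreated cells. Some members crossed over. MFAP4, a microfibril protein gene, was at 43.2 and 110 CPM in MYCN-high and at 6.93 and 10.2 CPM in MYCN-low cells at 8 days (3.15 ± 0.58), but at 22.2 and 14.3 against 105 and 37.3 CPM before the drug (-1.96 ± 0.55). EMILIN1, an elastic fibre protein gene, reversed in the same way, from -1.43 ± 0.33 to 1.47 ± 0.33. Both changes were called, at 5.12 ± 0.80 (adjusted p = 0.00267) and 2.90 ± 0.46 (adjusted p = 0.00283), and for both genes MYCN-high cells had risen and MYCN-low cells had fallen.

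Integrins, the receptors through which cells grip the matrix, were lower in 12 of 17 tested members and higher in none (median -2.03). Before the drug 12 were lower too (median -1.82). At 8 days ITGB1, the common beta subunit, was at 919 and 711 CPM in MYCN-high and at 3816 and 4280 CPM in MYCN-low cells (-2.31 ± 0.23). ITGAV (-2.03 ± 0.23) and ITGA5 (-3.27 ± 0.38) followed. ITGA11, a collagen receptor subunit, was at 0.883 and 0.527 against 236 and 55.0 CPM (-7.66 ± 0.94). Of 28 YAP and TGF-beta targets 26 were lower (median -2.26), against 17 before the drug (median -1.11). MYLK, the kinase of smooth muscle myosin, was at 71.1 and 29.4 against 724 and 919 CPM (-4.03 ± 0.37), TAGLN, an actin-binding protein gene, at 6.56 and 2.58 against 839 and 250 CPM (-6.88 ± 0.87), and tropomyosin TPM1 at 263 and 371 against 2539 and 2087 CPM (-2.87 ± 0.31). The single higher gene was TEAD4, a DNA-binding partner of YAP (1.96 ± 0.34).

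Against untreated cells, YAP and TGF-beta targets moved in both states. In MYCN-high cells 14 of the 28 were below their untreated level (median -1.25), and 6 without untreated replicate B or without 8-day replicate C, while in MYCN-low cells 4 were above and 7 below (median 0.02, and 4 below without 8-day replicate C). TPM1 fell by 2.21 on the log2 scale in MYCN-high cells (adjusted p = 6.39e-04), AMOTL2, a YAP-binding scaffold gene, by 2.48 (adjusted p = 1.20e-04) and TAGLN by 2.94 (adjusted p = 0.0261). The value for TPM1 in MYCN-low cells was -0.45 (adjusted p = 0.276). The change of the list's state difference was called in 5 members, in 1 without untreated MYCN-high replicate B or 8-day MYCN-high replicate C, in 2 without 8-day MYCN-low replicate B, and in 8 without untreated MYCN-high replicate C. FILIP1L, a gene outside the lists, also fell in MYCN-high cells, from 331 and 210 CPM to 19.3 and 15.8 CPM, while the MYCN-low libraries were at 361 and 444 CPM before and 502 and 694 CPM after. Its change of -4.52 ± 0.56 was called (adjusted p = 4.95e-04).

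Secreted factors tied to senescence were lower in MYCN-high cells in 28 of 52 tested members and higher in 1 (median -1.52). CSF1, the macrophage growth factor, was at 26.7 and 11.8 CPM in MYCN-high and at 489 and 302 CPM in MYCN-low cells (-4.36 ± 0.42, adjusted p = 2.24e-06). INHBA, the activin subunit, was at 0.604 and 0.633 against 123 and 37.5 CPM (-7.01 ± 0.82). The protease inhibitor TIMP2 (-2.44 ± 0.24) and the lipase inhibitor ANGPTL4 (-5.30 ± 0.60) were lower as well. The chemokine IL8 was at 13.4 and 2.64 against 25.5 and 46.2 CPM (-2.15 ± 0.55, adjusted p = 0.00505). IL6, the cytokine most often named in senescence, reached 1.82 and 2.07 CPM in MYCN-low and 0 and 0.105 CPM in MYCN-high cells (adjusted p = 6.76e-04), a low level in both states. The list as a whole was no further apart than before the drug, where the median was -1.58, with 28 members lower (13 without untreated MYCN-high replicate C).

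The 1 secreted factor called higher was MMP2, a gelatinase, at 220 and 242 CPM in MYCN-high and at 78.7 and 90.6 CPM in MYCN-low cells (1.45 ± 0.40, adjusted p = 0.00845), which was not called without MYCN-low replicate B (adjusted p = 0.0734). It had been lower in MYCN-high cells before the drug, at 44.6 and 40.6 against 115 and 79.1 CPM (-1.18 ± 0.40), and rose in MYCN-high cells by 2.44 ± 0.42 (adjusted p = 0.00238).

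Immune genes were lower in MYCN-high cells in part. Of 27 NF-kappaB subunits and targets 12 were lower and 1 higher (median -1.07, and 7 lower without MYCN-high replicate C), with the adhesion molecule VCAM1 at 149 and 85.8 against 561 and 819 CPM (-2.56 ± 0.46) and the subunit RELB at 4.46 and 3.06 against 10.5 and 11.0 CPM (-1.51 ± 0.34). VCAM1 had risen in both states since the untreated level, by 3.22 in MYCN-high and by 2.60 in MYCN-low cells. Of 40 interferon-stimulated genes 18 were lower and 3 higher (median -0.86). The signal transducer STAT2 (29.6 and 19.5 against 82.3 and 79.8 CPM, -1.72 ± 0.21) and its partner IRF9 (-1.79 ± 0.26) were lower, and IFI44L was higher (39.5 and 38.6 against 9.63 and 12.3 CPM, 1.83 ± 0.34). Of 21 genes of MHC class I presentation 13 were lower (median -0.99), HLA-B at 26.3 and 28.2 against 225 and 211 CPM (-3.00 ± 0.22), though reads of HLA genes can be shared between near-identical copies. Of 14 complement genes 10 were lower (median -1.87), among them the protease C1S (10.0 and 8.91 against 72.9 and 121 CPM, -3.36 ± 0.35) and the membrane inhibitor CD59 (-2.14 ± 0.18). The untreated medians of these 4 lists were -1.08, -0.79, -0.66 and -1.55. With ERCC scaling their medians at 8 days shrank to -0.084, -0.084, -0.18 and -0.94.

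Lysosome and autophagy genes, whose rise is a known trait of senescent cells, were lower in MYCN-high cells in 28 of 37 members. The list had 1 higher member and a median of -1.18, which shrank to -0.34 with ERCC scaling. CTSO, a cathepsin gene, was at 17.1 and 21.7 CPM against 104 and 108 CPM (-2.46 ± 0.21, adjusted p = 1.07e-06), PSAP, the precursor of lysosomal activators, at 711 and 530 against 1696 and 1835 CPM (-1.51 ± 0.18), and HEXA, a hexosaminidase subunit, at 56.5 and 54.4 against 134 and 143 CPM (-1.32 ± 0.14). The exception was GUSB, the lysosomal glucuronidase gene (0.83 ± 0.20). In untreated cells 25 of the 37 were already lower (median -0.91). In MYCN-low cells 13 members had risen by 8 days and in MYCN-high cells 4 had, CTSO by 1.31 (adjusted p = 2.51e-04) and by 1.16 (adjusted p = 0.00338).

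Markers of neuroblastoma cell identity gave a mixed result. SHEP is known as a line of mesenchymal type. Of 22 mesenchymal factors 11 were lower and 4 higher in MYCN-high cells (median -0.46, which turned to 0.33 with ERCC scaling), and 7 were lower without MYCN-high replicate C. Before the drug 10 of the 22 mesenchymal factors were lower and 2 higher (median -0.665). Their change was called higher in 1 and lower in 1. At 8 days RUNX1 (19.8 and 20.5 against 89.0 and 66.4 CPM, -1.95 ± 0.23) and the hyaluronan receptor CD44 (378 and 357 against 714 and 1081 CPM, -1.29 ± 0.22) were lower. TWIST1, a driver of mesenchymal fate, was higher, at 48.8 and 60.8 against 33.7 and 32.3 CPM (0.73 ± 0.16), after having been lower before the drug, at 41.9 and 47.2 against 140 and 118 CPM (-1.54 ± 0.17). Its change of 2.27 ± 0.23 (adjusted p = 1.49e-04) came with a fall of 1.97 on the log2 scale in MYCN-low cells. Of 13 tested adrenergic factors 5 were higher and 1 lower (median 0.38), and 1 was higher without MYCN-low replicate B, while 9 of the 22 in the table were too low to test. HAND2, a factor of sympathetic development, was at 270 and 325 against 62.2 and 109 CPM (1.79 ± 0.35).

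Several of the largest differences lay outside the lists. SERPINF1, which encodes an inhibitor of blood vessel growth, was at 76.4 and 91.6 CPM in MYCN-high and at 0.393 and 1.83 CPM in MYCN-low cells (6.16 ± 0.66, adjusted p = 5.11e-06). Before the drug the libraries overlapped, at 14.5 and 9.72 against 16.1 and 8.5 CPM, and SERPINF1 moved in both states, up by 2.80 (adjusted p = 0.00532) and down by 3.38 on the log2 scale (adjusted p = 0.00108). THSD7A, a thrombospondin repeat protein gene, was at 107 and 120 against 4.08 and 3.24 CPM (4.96 ± 0.41), and had stood at 2.24 and 0.694 CPM in untreated MYCN-high cells. The imprinted RNA H19 was at 21.3 and 24.3 against 0.196 and 0.276 CPM (6.53 ± 1.14), the pigment enzyme gene TYRP1 at 9.34 and 14.6 against 0.295 and 0.310 CPM (5.27 ± 0.84), and the chemerin receptor gene CMKLR1 at 28.3 and 52.7 against 1.96 and 0.345 CPM (5.19 ± 1.20). All 3 were below 1 CPM in every untreated library. TERC, the template RNA of telomerase, was at 11.0 and 14.8 against 2.31 and 1.21 CPM (2.90 ± 0.37), with a called change of 2.95 ± 0.50 (adjusted p = 0.00408).

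Among the largest lower genes, KIAA1199, a hyaluronan-degrading protein gene, was at 0.418 and 0.738 CPM in MYCN-high and at 271 and 83.7 CPM in MYCN-low cells (-8.26 ± 0.78, adjusted p = 2.01e-06). GPR116, an adhesion receptor gene, was at 0.604 and 0 against 65.3 and 40.0 CPM (-7.35 ± 0.94). By a smaller amount VLDLR, a lipoprotein receptor gene that the integrated stress response induces, was lower, at 5.76 and 3.32 against 91.5 and 63.6 CPM (-4.08 ± 0.35). Of 17 integrated stress response genes 8 were lower and 0 higher (median -0.99, which shrank to -0.15 with ERCC scaling). Before the drug 4 of them were lower and 1 higher (median -0.39). GFRA1, a co-receptor for GDNF, reversed between the times, at 49.3 and 53 against 26.4 and 14.0 CPM before the drug (1.34 ± 0.46) and at 2.23 and 1.32 against 12.1 and 8.58 CPM at 8 days (-2.53 ± 0.54). Its change of -3.87 ± 0.71 was called (adjusted p = 0.00666), and the move lay in MYCN-high cells, where it fell by 4.83 on the log2 scale (adjusted p = 1.65e-04).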

How the data were processed

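The authors deposited raw counts of reads per gene symbol for 19 libraries in 10 groups. Reads were aligned with STAR 2.4.0h1 to hg19 and counted with HTSeq, per the submitters' processing notes; the annotation and strand setting are not given in the sources used here. Ribosomal RNA was removed with a RiboGold kit, ERCC RNAs were added and ScriptSeq libraries were made, per the labels' protocols. The table holds 23459 rows, 92 of them ERCC RNAs, which were left out of totals and tests. All 19 libraries were fitted together in edgeR 4.0.16 (R 4.3.3) with TMM factors, a filter on low counts by group and the quasi-likelihood test, which left 14793 of 23367 genes, 9 residual degrees of freedom and a biological coefficient of variation of 0.204. Adjusted p-values are Benjamini-Hochberg over all genes tested, and adjusted p under 0.05 is a call. The state differences were contrasts of group means, and the change was the 8-day minus the untreated contrast. Log2 CPM used a prior count of 2. Totals of 19081927 to 27638012 counts set the counting precision, and with 2 libraries a group the p-values measure the spread between labelled duplicates, which may be technical.

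Named genes were the marker genes, the genes with the largest differences and changes among those called with a mean of at least 5 CPM and a log2 difference of at least 1, those of opposite sign at the 2 times, abundant genes and the members of smallest p of each list. The members and the 41 gene lists were chosen with earlier results of these data known. Lists are described by counts and medians. Alternatives were DESeq2 1.42.0 size factors and its Wald test, no filter, ERCC scaling, the groups compared alone, the replicate letter as a block, and each library left out. The scripts were tested on simulated data. Promoter sequences were from RefSeq on GRCh38.p14. Some genes are not reported here.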

Additional observations from a re-analysis of the deposited data

Results flagged for a closer look

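Each gene here had a state difference at 8 days that differed from the one in untreated cells by the test of the change itself, and was among the largest such changes or switched direction; the values are that change on the log2 scale. The change was positive for VGF (6.28), a secreted neuropeptide precursor, and for SERPINF1 (6.17), MFAP4 (5.12) and EMILIN1 (2.90). The histone genes HIST1H2BB (5.62), HIST1H3G (5.58), HIST1H3B (5.23), HIST1H3D (4.86) and HIST1H3C (4.85) shared this direction. The change was negative for NPR3 (-5.26), a clearance receptor for natriuretic peptides, TNIP3 (-5.04), an inhibitor of NF-kappaB signalling, GPR116 (-4.83) and FILIP1L (-4.52). It was also negative for OLFML2B (-4.13), MEGF6 (-4.04), CXCR7 (-3.91), a scavenging chemokine receptor, GFRA1 (-3.87) and AK4 (-1.65), a mitochondrial adenylate kinase. SERPINF1, HIST1H2BB, MFAP4, EMILIN1, FILIP1L, CXCR7, GFRA1 and AK4 were called whichever of the 8 libraries was left out. For the HIST1H3 genes the call with a library left out is not given here.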

How the results depend on the processing

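The direction and the call at 8 days held under every alternative apart from ERCC scaling for 130 of the 133 called genes that were followed. ECT2, CCNB2, HSPD1 and UTP20, shown for their sequence, were not among the 133, nor were some genes flagged for a closer look. MDM2, GDF15 and MMP2 each lost the call without 1 library, as given above. Of 67 called changes among the genes followed, 30 held under the same alternatives and 37 lost the call under at least 1. With ERCC scaling 0 genes were called at 8 days, 0 in untreated cells, 0 for the change and 0 in MYCN-low cells against untreated, and 4 in MYCN-high cells; LMNA turned to 0.094 at 8 days. With 1 library left out, the change of MYCN ran from -0.24 (without untreated MYCN-low replicate B) to 0.38 and that of CDKN1A from -1.23 to 0.14 (without 8-day MYCN-high replicate C), and the cause was not tested. The change was called in 1638 genes and the MYCN-high move in 2045 with DESeq2's Wald test, in 1931 and 2080 with no filter on low counts, and in 541 and 2384 with only the groups compared, where untreated cells gave 2238 and MYCN-low cells 1153. With 1 library left out, calls ran from 4490 to 5379 at 8 days, 2903 to 6434 untreated, 246 to 3036 for the change, 347 to 561 in MYCN-high and 1948 to 5111 in MYCN-low cells. With the replicate letter as a block, 6656 genes were called at 8 days, 5461 untreated, 1276 for the change, 1540 in MYCN-high and 3944 in MYCN-low cells. Under the block, the change was called in 37 cytosolic ribosomal proteins in place of 17, as lower in 12 matrix genes in place of 6 and as lower in 11 YAP and TGF-beta targets in place of 5, and 11 interferon-stimulated genes in place of 7 rose in MYCN-high cells. The letters were not treated as pairing the libraries, because the correlation of deviations between groups ran from -0.21 to 0.32, with 0.046 between the states at 8 days and 0.18 untreated. Cytosolic ribosomal proteins nevertheless had the higher mean log2 CPM in replicate C in every group with both letters, at 8 days 9.57 against 9.22 in MYCN-high and 8.24 against 7.97 in MYCN-low cells. Of the 92 ERCC RNAs 33 had a mean of at least 10 counts, and the summed counts of all 92 set that scaling. Their share differed between duplicates, which limits it. It was 0.0116% and 0.191% in MYCN-high cells at 72 h and 0.367% and 0.12% in untreated MYCN-low cells. At 8 days MYCN-high replicate B, at 0.037%, lay below the other libraries, so the ERCC values at that time lean on 1 library.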
